A study of Mus musculus with 28 samples.

Results

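The 4 Lyz2-Cre livers from mice with diet-induced steatohepatitis were compared with 3 control cultures of bone marrow-derived macrophages, to sort the transcripts of the control samples into those that belong mostly to the liver, those that belong mostly to the macrophage and those that both share. The livers came from male mice that were put on a diet lacking methionine and choline at 8 weeks of age and kept on it for 4 weeks. The cultures were marrow cells differentiated for 7 days in medium with 30% supernatant of L929 cells, which supplies the growth factor CSF1, and served in the series as controls for the ASK1-MKI macrophages. Both groups carry the genotype Lyz2-Cre, in which the Cre recombinase is driven in myeloid cells, and no targeted gene is deleted or added in either. For the mice that gave the marrow, no age, sex or diet is stated in the labels. These 7 libraries are part of a series of 28, and the comparison covered the 16840 gene symbols found in both deposited tables. Liver and culture were counted into separate tables, so tissue, table and any difference in how reads were counted cannot be told apart, and a level set across them carries that limit throughout.

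Hepatocytes, the main cells of the liver by mass, secrete most plasma proteins and carry out the urea cycle, gluconeogenesis, bile acid synthesis and drug metabolism, under transcription factors such as HNF4A and the FOXA family. The resident macrophages of the liver are Kupffer cells, which line the sinusoids beside specialised endothelium and vitamin A-storing stellate cells. In steatohepatitis they are joined by macrophages that arise from blood monocytes, and some of these take on a lipid-associated state marked by Trem2, Gpnmb, Spp1 and Cd9. Macrophages grown from marrow depend on the factor PU.1, encoded by Spi1, and on signalling through the receptor Csf1r.

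The 4 livers held 20601168 to 28410720 counts and the 3 cultures 17160260 to 18728508, of which at least 99.3% fell on shared genes in each library. Levels are in CPM, the counts of a gene scaled to a common total over the shared genes. Of the shared genes, 13090 passed a filter on low counts and were tested with edgeR's quasi-likelihood test. The ratio is the mean CPM of the livers over that of the cultures, with a group under 3 counts in all set to a floor of 3 counts, so that a ratio against a group at 0 is a bound. Where nothing in the labels ties a library to an animal or a separate culture, the p-values measure the spread between these libraries only. Liver replicate 2 stood apart from the other livers. Of the 1888 macrophage-dominated genes counted in any liver, 1517 (80.3%) were highest in that liver, against 59.1% of all tested genes. The median coefficient of variation across the 4 livers was 41.9% for macrophage-dominated genes, against 17.5% for liver-dominated and 11.7% for shared genes. Across the 3 cultures the macrophage-dominated genes varied by a median of 3.98% and the liver-dominated genes by 48.6%. Each of these classes was low where it varied most. The median liver level was 1.72 CPM for macrophage-dominated, 14.6 CPM for liver-dominated and 21.4 CPM for shared genes. In the cultures the median level of liver-dominated genes was 0.0537 CPM. The part that counting error at low levels plays in these spreads was not tested. In whole liver, fewer cells of a type and less RNA per cell cannot be told apart.

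The promoters of leading genes of each class are shown as examples. They were picked because they hold the named letters, so they do not show how common the letters are in a class. They were matched by symbol in RefSeq's table for GRCm38.p6, the build named mm10 in the labels, which held 10477 of the 13090 tested genes. Each is the 250 bases before a gene's start, 5′ to 3′ on the gene's own strand, and was taken from the gene with the highest mean CPM in its class whose window held the named letters. Capitals mark those letters. In Alb (chr5:90460620-90460869, plus strand), which encodes serum albumin, they are the FOXA-type TGTTTGC, read on the other strand as GCAAACA. In Cyp3a11 (chr5:145879855-145880104, minus strand), a drug-metabolising cytochrome P450, they are the HNF4-type CAAAGTCCA. In Mmp8 (chr9:7558179-7558428, plus strand), a neutrophil and macrophage collagenase, they are the PU.1-type GAGGAAGT, read as ACTTCCTC. In Saa3 (chr7:46715677-46715926, minus strand), an acute-phase serum amyloid gene, they are of the interferon response element type, a pair of GAAA words with any 2 bases between them. In Eef1a1 (chr9:78481725-78481974, minus strand), the translation elongation factor, they are the GC box GGGCGG, read as CCGCCC.
Alb (liver-dominated): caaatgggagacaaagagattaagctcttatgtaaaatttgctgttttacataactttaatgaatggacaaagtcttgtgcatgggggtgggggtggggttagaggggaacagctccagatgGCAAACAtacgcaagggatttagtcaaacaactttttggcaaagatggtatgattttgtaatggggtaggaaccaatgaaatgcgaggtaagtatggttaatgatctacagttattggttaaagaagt
Cyp3a11 (liver-dominated): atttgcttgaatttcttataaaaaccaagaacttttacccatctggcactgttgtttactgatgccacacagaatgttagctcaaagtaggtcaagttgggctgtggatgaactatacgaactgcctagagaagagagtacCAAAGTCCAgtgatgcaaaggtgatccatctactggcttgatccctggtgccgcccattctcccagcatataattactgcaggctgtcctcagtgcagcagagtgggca
Mmp8 (macrophage-dominated): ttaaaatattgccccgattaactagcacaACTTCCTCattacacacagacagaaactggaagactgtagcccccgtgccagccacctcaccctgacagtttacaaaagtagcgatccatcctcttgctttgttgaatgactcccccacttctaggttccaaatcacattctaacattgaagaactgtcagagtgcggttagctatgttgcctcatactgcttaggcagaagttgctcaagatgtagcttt
Saa3 (macrophage-dominated): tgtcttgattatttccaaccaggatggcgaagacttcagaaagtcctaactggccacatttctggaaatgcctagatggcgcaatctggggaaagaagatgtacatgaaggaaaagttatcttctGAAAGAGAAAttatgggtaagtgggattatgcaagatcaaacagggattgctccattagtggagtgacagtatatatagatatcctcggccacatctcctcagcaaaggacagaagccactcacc
Eef1a1 (shared): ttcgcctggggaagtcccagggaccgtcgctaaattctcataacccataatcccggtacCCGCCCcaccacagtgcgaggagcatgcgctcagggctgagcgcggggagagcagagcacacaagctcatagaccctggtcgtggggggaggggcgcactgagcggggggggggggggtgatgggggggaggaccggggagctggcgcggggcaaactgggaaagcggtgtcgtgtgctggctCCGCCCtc
Searched on both strands, CAAAGTCCA stood in 1.11% of the 2062 windows of liver-dominated genes, 0.595% of the 2018 of macrophage-dominated genes and 0.285% of the 3855 of shared genes, against 0.383% of all 32851 windows in the table. GAGGAAGT stood in 1.70% of liver-dominated, 4.61% of macrophage-dominated and 2.26% of shared windows, against 2.44% of all. The interferon-type letters stood in 2.38%, 4.21% and 2.36% of windows of those classes in the same order, against 2.98% of all. TGTTTGC stood in 4.90% of liver-dominated, 3.57% of macrophage-dominated and 2.91% of shared windows, against 4.30% of all. The AP-1-type TGACTCA was about as frequent in liver-dominated (5.33%) as in macrophage-dominated windows (5.15%), against 4.46% of all. TATAAA stood in 12.3% of liver-dominated and 5.40% of shared windows, and GGGCGG in 42.3% of liver-dominated and 59.3% of shared windows, so the shared genes had fewer TATA-type and more GC box-type letters than the liver-dominated genes. TATAAA stood in 12.4% and GGGCGG in 32.7% of all windows. These shares are descriptions of letters, with no test.

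Liver and cultured macrophages differed in most of their transcriptome. At an adjusted p under 0.05 in edgeR, 11798 of the 13090 tested genes (90.1%) differed, 3967 (30.3%) being higher in the livers and 7831 (59.8%) lower. This split depends on the scaling. With TMM, which assumes that most genes do not differ, the median log2 ratio moved up by 1.00, with the shift of single genes differing somewhat. Under TMM 6139 genes (46.9%) were higher and 5270 (40.3%) lower in the livers. Log2 ratios between -1 and 0 as printed here therefore mostly turn positive under TMM. The values of the livers and of the cultures did not overlap for 11871 genes (90.7%).

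The 4 classes were set by the ratio of means. Liver-dominated genes, called and at least 8-fold higher in the livers, numbered 2171 (16.6%). Macrophage-dominated genes, called and at least 8-fold lower in the livers, numbered 1953 (14.9%). Shared genes, within 2-fold, numbered 3690 (28.2%), and 5276 lay between. All 2171 liver-dominated genes kept their class under TMM, which raised the ratios, while 1159 of the macrophage-dominated and 2412 of the shared genes did. Without liver replicate 2 the first 3 classes held 2054, 2107 and 3518 genes. Fdx1, 8.02-fold higher in the livers, was just inside the liver-dominated limit and Nudt7, 7.99-fold higher, just outside it. Bex3, 8.01-fold lower in the livers, was just inside the macrophage-dominated limit and Ypel3, 7.99-fold lower, just outside it.

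**Figure D1:**
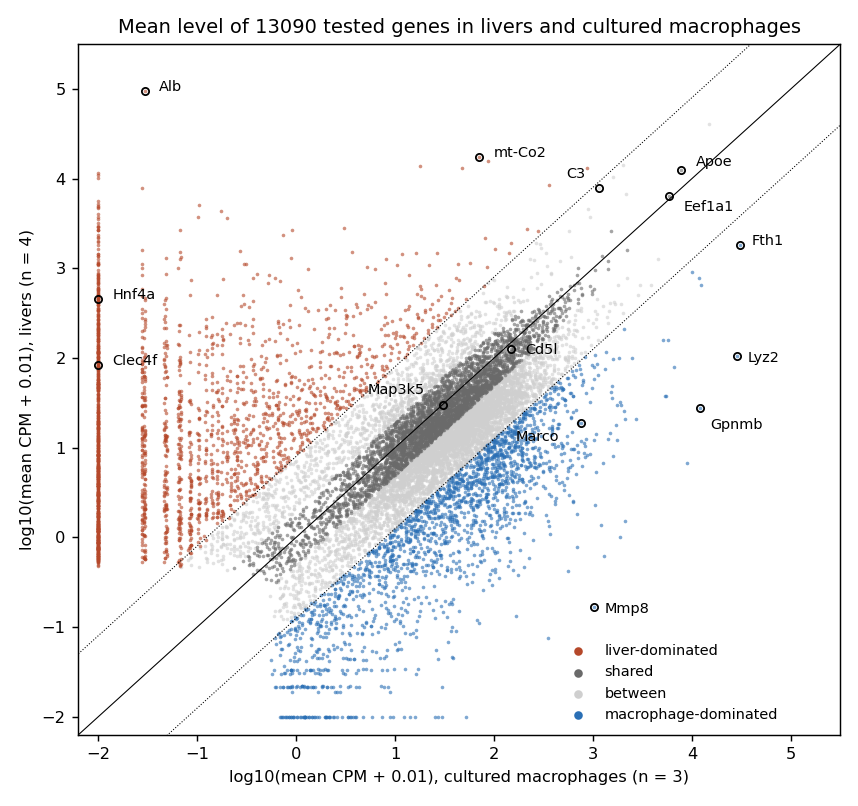
Mean level of each tested gene in livers (vertical axis, n = 4) and in cultured macrophages (horizontal axis, n = 3), both as log10(CPM + 0.01), coloured by class. The solid line marks equal levels and the dotted lines an 8-fold difference. Alb and Clec4f sit high at the left edge, Lyz2, Gpnmb and Mmp8 lie below the lower dotted line, and Apoe, Eef1a1, Cd5l and Map3k5 lie close to the solid line.

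Both dominated classes held genes with no count in the other group. Of the liver-dominated genes, 776 had no count in any culture and 1084 had fewer than 3 counts over the 3 cultures. Of the macrophage-dominated genes, 65 had no count in any liver and 158 had fewer than 3 over the 4 livers. Among shared genes and those between, 0 had fewer than 3 counts in either group. A gene at 0 in a group passed the filter only through the other group. The livers were more in number and deeper than the cultures, and whole liver holds macrophages. These numbers therefore do not compare how exclusive the classes are. Liver-dominated genes took 51.7% ± 1.4 of the liver counts on shared genes (SD, n = 4) and 0.518% ± 0.001 of the culture counts (SD, n = 3). Macrophage-dominated genes took 1.32, 2.09, 1.53 and 1.45% of the counts of the 4 livers, the highest in replicate 2, against 38.2% ± 0.1 of the culture counts. Shared genes took 19.5% ± 0.7 of the liver counts and 21.7% ± 0.1 of the culture counts. The most counted gene of the livers was Alb with 9.45% of counts, and those of the cultures were Fth1, the ferritin heavy chain that stores iron, with 3.08% and Lyz2, lysozyme, with 2.85%.

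**Figure D2:**
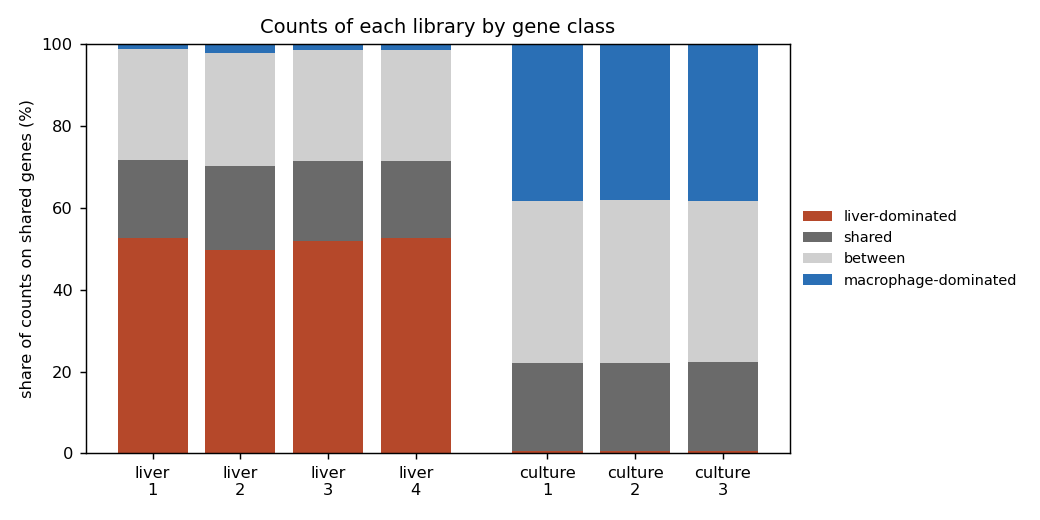
Share of the counts on shared genes that fell in each class, one stacked bar per library, livers at the left and cultures at the right. Liver-dominated genes fill 49.8 to 52.7% of each liver bar and 0.517 to 0.520% of each culture bar, and macrophage-dominated genes 1.32 to 2.09% of each liver bar and 38.1 to 38.3% of each culture bar.

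The liver-dominated class was led by secreted plasma proteins. Alb (chr5:90460897-90476602 in mm10) stood at 93716, 86689, 97060 and 100418 CPM in the livers, against 0, 0.0587 and 0 CPM in the cultures, a single count in all. All 18 listed plasma proteins were liver-dominated, with a median log2 ratio of 14.97, against -0.85 over all tested genes. Trf, the iron carrier transferrin, was the member with the smallest ratio, at 14759, 16309, 15278 and 15933 CPM in the livers, against 87.1, 84.6 and 89.1 CPM in the cultures. Its log2 ratio was 7.48 (SE 0.10, edgeR adjusted p = 1.8e-10). Ahsg, the fetuin that binds calcium phosphate, averaged 10871 CPM in the livers and had no count in the cultures, at least 192732-fold higher. Apoa1, Apob and Gc, the apolipoproteins of high- and low-density lipoprotein and the vitamin D carrier, also had no count in the cultures.

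Coagulation factors, which hepatocytes release into plasma, were liver-dominated in 14 of 16 cases. Fga, the fibrinogen alpha chain, averaged 2376 ± 367 CPM in the livers (SD, n = 4) and had no count in the cultures. The exceptions were the initiating protease F7 and the prothrombin-activating protease F10. F7 stood at 52.2, 41.9, 48.7 and 51.1 CPM in the livers and 54.5, 55.1 and 53.7 CPM in the cultures. The culture values of F7 lay just above the liver values, with an adjusted p of 0.15 in edgeR and a log2 ratio of -0.17 that turned to 0.85 under TMM. F10 stood at 350, 261, 349 and 341 CPM in the livers, against 132, 133 and 137 CPM in the cultures. The livers were 2.43-fold higher for F10 without overlap (edgeR adjusted p = 4.4e-06).

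Complement genes fell in both dominated classes. Of 21 tested members, 16 were liver-dominated, among them the terminal components Hc, C6, C8a, C8b and C9, the lectins Mbl1 and Mbl2, and the regulator Cfi. The 4 macrophage-dominated members were the 3 chains of C1q, which recognises immune complexes, and properdin, Cfp, which stabilises the alternative convertase. C1qa stood at 31.4, 51.0, 38.0 and 36.5 CPM in the livers, against 443, 448 and 448 CPM in the cultures, 11.4-fold lower in the livers. C1qb and C1qc were both 14.6-fold lower and Cfp 12.9-fold lower in the livers. Set against the second control cultures described at the end, the direction of the C1q chains turned, with a log2 ratio of 8.21 for C1qa. C3, the central component, lay between the classes at 7277, 7918, 8223 and 7661 CPM in the livers and 1138, 1149 and 1140 CPM in the cultures (log2 ratio 2.77, SE 0.08, edgeR adjusted p = 3.3e-09). The livers lay 6.80-fold above the cultures for C3, with no overlap.

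Of 22 cytochrome P450 and conjugation genes, 20 were liver-dominated, and Cyp2e1, the ethanol-inducible P450, stood at 11843, 10639, 10226 and 13012 CPM in the livers with no count in the cultures. Gstm1, a glutathione transferase, lay between at a log2 ratio of 2.14. Por, the reductase that passes electrons to all microsomal P450s, was shared, at 647, 454, 500 and 442 CPM in the livers and 563, 561 and 554 CPM in the cultures. Its groups overlapped and the adjusted p was 0.37 in edgeR. Of 22 genes of the urea cycle and amino acid breakdown, 21 were liver-dominated. Cps1, the first enzyme of the urea cycle, averaged 4062 ± 827 CPM in the livers and had no count in the cultures. Ass1 and Arg1 of the same cycle were also present in the cultures, at 216 ± 2 and 16.3 ± 1.3 CPM (SD, n = 3), against 2765 ± 720 and 1496 ± 203 CPM in the livers (SD, n = 4).

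Gluconeogenesis was liver-dominated in 6 of 7 genes. Pck1, the cytosolic carboxykinase, stood at 467, 1288, 982 and 1332 CPM in the livers and had 1 count in the cultures, whereas the mitochondrial Pck2 was shared. Of 15 hepatocyte transcription factors, 14 were liver-dominated. Hnf4a stood at 415, 496, 460 and 464 CPM in the livers with no count in the cultures. Cebpa, which acts in both hepatocytes and the myeloid lineage, was the exception at 190, 132, 141 and 157 CPM in the livers and 164, 160 and 159 CPM in the cultures. The groups overlapped for Cebpa, with a log2 ratio of -0.06 (SE 0.13, edgeR adjusted p = 0.69), which was 0.97 under TMM.

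**Figure D3:**
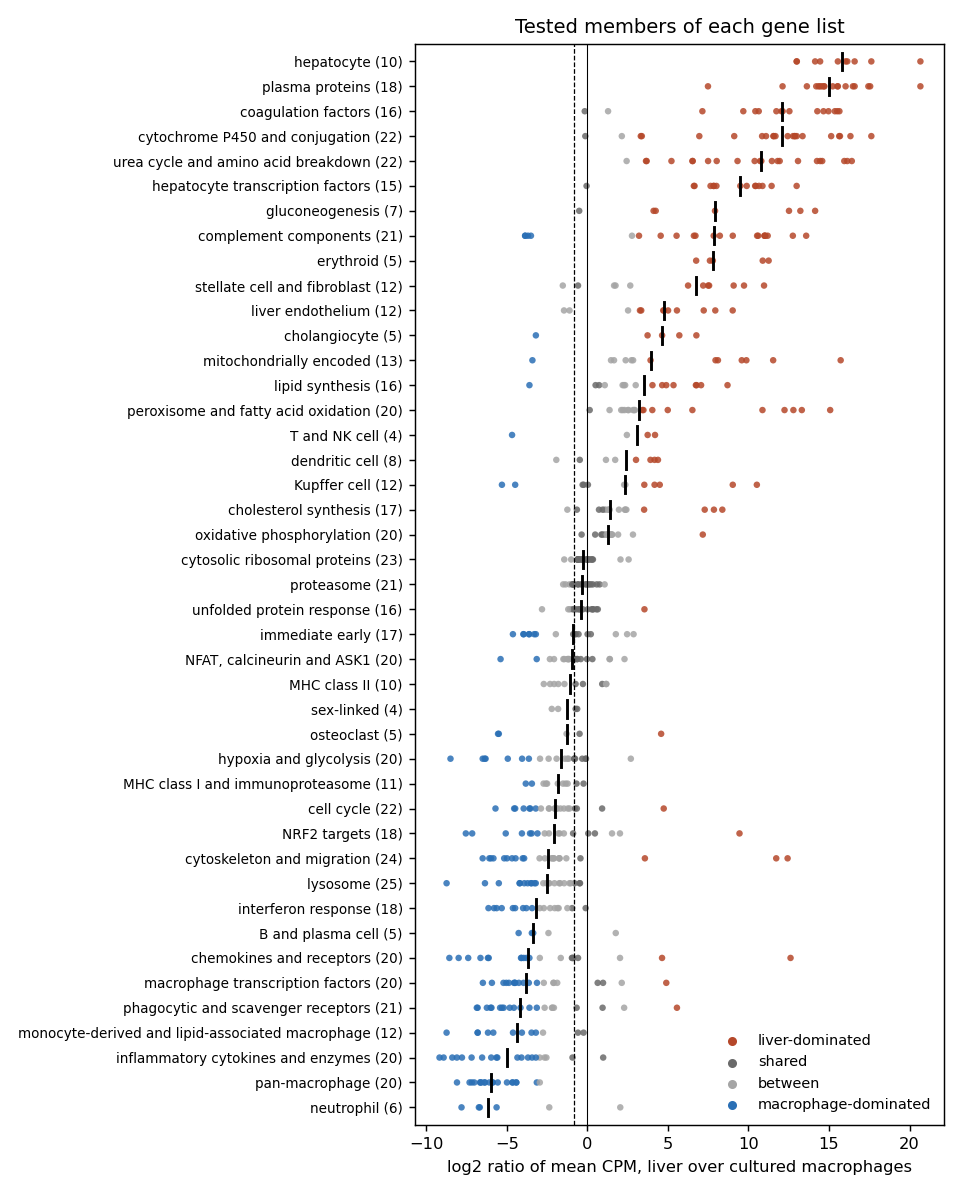
Log2 ratio of mean CPM, livers over cultures, for each tested member of the gene lists with at least 4 tested members, given in parentheses. Points are genes coloured by class, black bars are list medians, the solid line is 0 and the dashed line the median of all tested genes at -0.85. Hepatocyte lists lie at the top right, ribosomal, proteasome and unfolded protein lists cluster near 0, and pan-macrophage and inflammatory lists lie at the left.

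Fat and energy metabolism was graded rather than exclusive. Of 20 genes of peroxisomes and fatty acid oxidation, 19 were higher in the livers and 10 were liver-dominated, with a median log2 ratio of 3.18. The transport enzyme Cpt1a was 4.57-fold higher in the livers (adjusted p = 3.7e-08 in edgeR). Cat, the peroxisomal catalase, was shared at 1508, 1283, 1365 and 1323 CPM in the livers and 1240, 1242 and 1249 CPM in the cultures. Of 16 lipid synthesis genes, 15 were higher in the livers. Fasn, the fatty acid synthase, was 24.9-fold higher and the desaturase Fads2 was 415-fold higher, at 1525 ± 32 CPM in the livers and 3.67 ± 0.225 CPM in the cultures. In the second control cultures, Fads2 stood at 205 CPM and Fasn at 322 CPM. Of 17 cholesterol synthesis genes, 15 were higher in the livers with a median log2 ratio of 1.38, which turned to -0.42 against the second control cultures. Of 20 nuclear genes of oxidative phosphorylation, 19 were higher in the livers, with a median of 1.29. Against the second control cultures that median was 0.15.

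On the other side, pan-macrophage genes formed the most uniform list. All 20 were lower in the livers and 19 were macrophage-dominated, with a median log2 ratio of -5.99. Lyz2 (chr10:117277331-117282321 in mm10) stood at 46.2, 213, 74.7 and 81.2 CPM in the livers, against 29348, 27054 and 29171 CPM in the cultures. Every culture lay more than 100-fold above every liver, and the ratio of means was 275-fold (log2 ratio -8.10, SE 0.54, edgeR adjusted p = 4.1e-07). Without liver replicate 2 the log2 ratio was -8.73. Adgre1, which encodes the F4/80 antigen, stood at 8.13, 33.2, 27.5 and 15.1 CPM in the livers, against 2715, 2722 and 2757 CPM in the cultures, 130-fold lower in the livers. Cx3cr1, the fractalkine receptor, was the exception and lay between the classes at a log2 ratio of -2.96. Without liver replicate 2 it was -3.89, past the 8-fold limit.

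Macrophage transcription factors did not move as a block. Of 20, 12 were macrophage-dominated, led by Runx1 (90.1-fold lower in the livers), Bhlhe41 (61.1-fold) and Zeb2 (37.1-fold). The log2 ratio of Runx1 was -6.49, and -7.23 without liver replicate 2. Spi1, which encodes PU.1, stood at 3.82, 11.9, 5.19 and 4.68 CPM in the livers, against 184, 190 and 191 CPM in the cultures. Maf, a factor of mature tissue macrophages, was only 4.33-fold lower in the livers, at 42.3 ± 4.3 CPM in the livers (SD, n = 4) and 183 ± 5 CPM in the cultures (SD, n = 3). Nr1h3, the oxysterol receptor LXR alpha, and Pparg were shared, both slightly higher in the livers. Id3, which Kupffer cells and other liver cells use, was liver-dominated at 48.7, 49.1, 39.9 and 28.3 CPM in the livers, against 1.65, 1.29 and 1.24 CPM in the cultures. Bhlhe40 was 4.38-fold higher in the livers, opposite to its paralogue Bhlhe41.

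The genes with the largest macrophage excess, among those at 100 CPM or more in the cultures, included enzymes and receptors of inflammation. Mmp8 stood at 0.0707, 0.279, 0.228 and 0.0488 CPM in the livers, against 1004, 997 and 1041 CPM in the cultures, 6479-fold lower in the livers. The other 9 of the 10 with the largest ratios were Slfn4, Acod1, which makes itaconate, the C-type lectins Clec4e and Clec4d, Lilrb4a, the prostaglandin synthase Ptges, Saa3, the collagen-crosslinking Lox and the sheddase Adam8. Saa3 stood at 3.04, 17.5, 3.14 and 2.97 CPM in the livers, against 8771, 8576 and 9213 CPM in the cultures. For Saa3, Acod1, Clec4e and Clec4d the highest liver was replicate 2, and the order of these genes rests on it. Without it the log2 ratio was -13.17 for Acod1 and -13.16 for Clec4e, against -13.10 for Mmp8, and -11.50 for Saa3 (-10.37 with it). Without it those of Clec4d, Adam8 and Lox were -11.88, -11.03 and -10.71. Set against the second control cultures, Saa3 had a log2 ratio of 0.44. Of 20 inflammatory cytokines and enzymes, 19 were lower in the livers and 15 were macrophage-dominated, among them Ptgs2, Il6, Tnf, Osm and Nos2. The log2 ratios of Tnf and Nos2 were -8.39 and -7.79, and -10.38 and -9.81 without liver replicate 2. Ptgs1, the constitutive cyclooxygenase, was the member that was higher in the livers.

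Of 20 tested chemokines and chemokine receptors, 15 were lower and 3 higher in the livers, and 2 were liver-dominated. Ccl5 stood at 1.27, 2.74, 1.05 and 2.19 CPM in the livers, against 669, 681 and 724 CPM in the cultures, 381-fold lower in the livers. Cxcl12, which stromal cells and endothelium use to hold marrow-derived cells, stood at 370, 342, 358 and 341 CPM in the livers with 2 counts in the cultures. Its receptor Cxcr4 ran the other way and was 99.9-fold lower in the livers. The other liver-dominated member was Ccl24, a chemokine that draws eosinophils, which stood at 0.530, 2.18, 2.00 and 0.878 CPM in the livers with no count in the cultures. Ccr2, the receptor that brings monocytes into tissue, did not pass the test, at 2.76, 13.9, 4.28 and 5.51 CPM in the livers and 10.9, 9.62 and 9.19 CPM in the cultures. Its log2 ratio was -1.25 without liver replicate 2. The median log2 ratio of the chemokine list was -3.70, and 1.29 against the second control cultures.

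Of 21 phagocytic and scavenger receptors, 18 were lower in the livers, with Tlr7 117-fold and Trem2 113-fold lower. Stab2, a hyaluronan receptor of the sinusoidal endothelium, was the liver-dominated member at 36.6 ± 6.4 CPM in the livers and 0.777 ± 0.208 CPM in the cultures. The median log2 ratio of the receptors was -4.16, and 1.37 against the second control cultures. All 25 lysosomal genes were lower in the livers, 20 of them under TMM, where 2 were higher. Gpnmb stood at 5.76, 80.2, 12.0 and 13.4 CPM in the livers, against 11969, 11949 and 11972 CPM in the cultures. Its log2 ratio was -8.75, and -10.17 without liver replicate 2. Ctsl, the cathepsin L protease, was shared at 1600 ± 176 CPM in the livers and 2206 ± 31 CPM in the cultures.

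Among targets of the oxidative stress factor NRF2, 13 of 18 were lower in the livers and 4 higher, with 7 macrophage-dominated. Hmox1, which breaks down haem, stood at 27.7, 56.2, 39.4 and 27.6 CPM in the livers, against 5355, 5283 and 5530 CPM in the cultures, 143-fold lower in the livers. Slc7a11, the cystine importer, stood at 2.55, 18.2, 4.01 and 2.19 CPM in the livers, against 1241, 1261 and 1294 CPM in the cultures. Its log2 ratio was -7.55, and -8.76 without liver replicate 2. Prdx1, a peroxidase, was 11.0-fold lower in the livers but had a log2 ratio of 1.01 against the second control cultures. Fth1 was 16.8-fold lower in the livers, at 1835 ± 161 CPM, against 30807 ± 410 CPM in the cultures. Ftl1, the ferritin light chain, ran the other way. It was 4.05-fold higher in the livers, at 3750 ± 530 CPM, against 925 ± 47 CPM in the cultures. In the second control cultures Fth1 stood at 9447 CPM and Ftl1 at 8463 CPM. The part that read counting plays in the ferritin ratios was not tested. The same list held Gsta1, a glutathione transferase with no count in the cultures, and Gclc, the catalytic subunit of glutathione synthesis, 2.88-fold higher in the livers, while its partner Gclm was 3.31-fold lower. Among 18 interferon response genes 17 were lower in the livers, with Irf7 at 25.2 ± 3.6 CPM in the livers and 624 ± 11 CPM in the cultures. The median log2 ratio of the interferon list was -3.20, and -0.29 against the second control cultures.

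Kupffer cell markers were split between all classes. Clec4f (chr6:83644542-83656187 in mm10), a lectin that is confined to Kupffer cells in the mouse liver, stood at 50.3, 103, 104 and 73.8 CPM in the livers with no count in the cultures, at least 1468-fold higher. Timd4, a receptor for dying cells, was liver-dominated at 3.04, 6.74, 5.60 and 4.78 CPM in the livers and 0.228, 0.176 and 0.269 CPM in the cultures. Vsig4, a complement receptor, was 11.6-fold higher in the livers. C6 and Xcr1 were also liver-dominated, each with 3 counts over the cultures. Hepatocytes make C6 as well, and Xcr1 is also a dendritic cell marker. Cd163, the haemoglobin receptor, was 4.85-fold and Clec1b 5.12-fold higher in the livers.

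Other Kupffer cell genes were as high or higher in the cultures. Cd5l, a secreted scavenger protein, stood at 69.0, 205, 122 and 110 CPM in the livers and 150, 149 and 147 CPM in the cultures. Slc40a1, the iron exporter ferroportin, stood at 190, 233, 232 and 197 CPM in the livers and 208, 212 and 207 CPM in the cultures. For Cd5l, Slc40a1 and Folr2 the groups overlapped and the edgeR test was not passed. Marco, a scavenger receptor, stood at 6.58, 39.9, 12.5 and 16.8 CPM in the livers, against 738, 755 and 763 CPM in the cultures, 39.7-fold lower in the livers, and its log2 ratio of -5.31 was -5.97 without liver replicate 2. Spic, the factor of iron-recycling macrophages, was 22.4-fold lower in the livers. In the second control cultures Cd5l stood at 0.0432 CPM and Slc40a1 at 4.65 CPM, and Marco and Spic had no count.

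Of 12 markers of recruited and lipid-laden macrophages, 9 were macrophage-dominated. Spp1, osteopontin, stood at 48.0, 126, 51.5 and 65.8 CPM in the livers, against 678, 678 and 660 CPM in the cultures, and biliary cells also make it. Lpl, lipoprotein lipase, was 24.7-fold and Trem2 113-fold lower in the livers. The summed level of the 12 markers was 227, 642, 222 and 295 CPM in the livers, against 18508, 18430 and 18444 CPM in the cultures. Liver replicate 2 was above the other 3 livers by more than 2-fold in that sum. Plac8 was shared, and so was Ccr2, whose log2 ratio of -0.59 was -1.25 without liver replicate 2, outside the 2-fold limit.

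MHC class II genes, which present antigen to helper T cells, were in no dominated class. Cd74, the invariant chain, stood at 60.8, 115, 71.0 and 73.3 CPM in the livers, against 37.2, 34.7 and 35.6 CPM in the cultures, 2.23-fold higher in the livers without overlap (edgeR adjusted p = 4.3e-04). H2-Ab1 stood at 24.7, 44.9, 27.3 and 28.1 CPM in the livers and 35.3, 39.8 and 38.8 CPM in the cultures, and its groups overlapped. H2-Aa and H2-Eb1 were 1.89-fold and 2.26-fold higher in the livers. The peptide-loading chains H2-DMa and H2-DMb1 were 5.00-fold and 6.55-fold lower in the livers. Ciita, the activator of the whole family, did not pass the test. MHC class I and immunoproteasome genes were lower in the livers in 11 of 11 cases, of which 8 were lower and 2 higher under TMM. Against the second control cultures the direction of Cd74 turned, with a log2 ratio of -3.88.

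**Figure D4:**
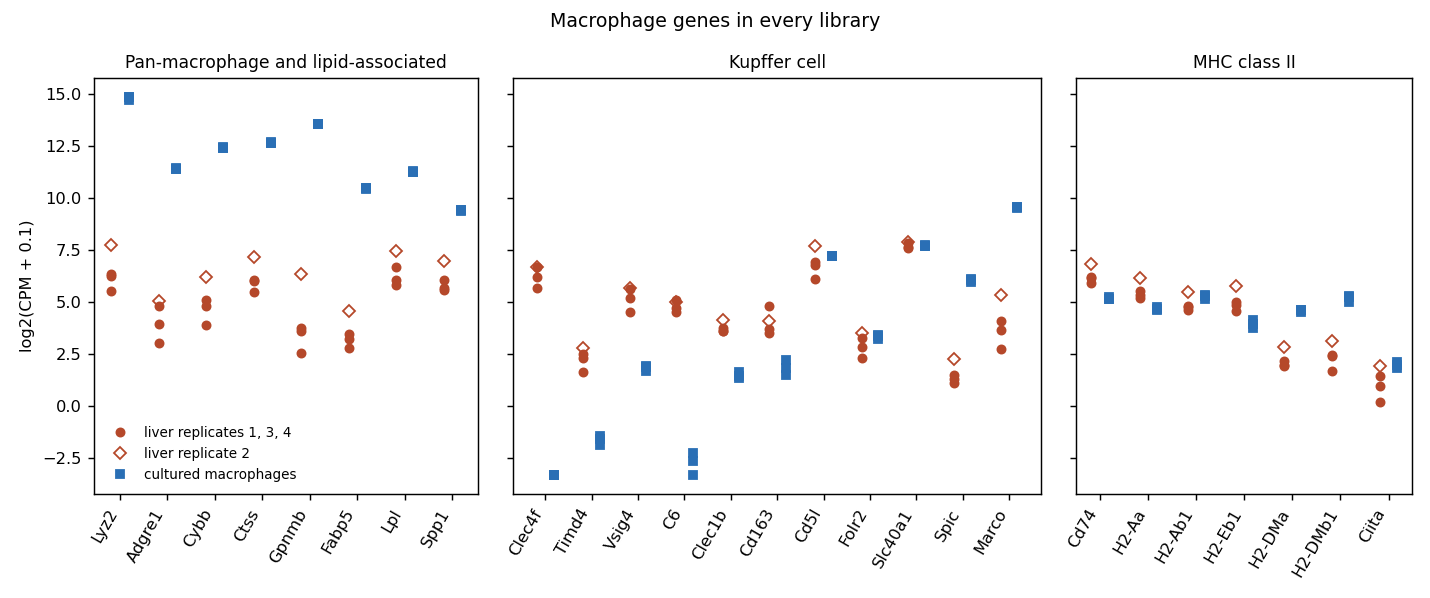
Level of macrophage genes in each library as log2(CPM + 0.1), with livers at the left and cultures at the right of each gene, and liver replicate 2 as open diamonds. Cultures lie far above livers for the pan-macrophage and lipid-associated genes. Kupffer cell genes run from Clec4f, at 50.3 to 104 CPM in livers and 0 in cultures, to Marco, at 6.58 to 39.9 CPM in livers and 738 to 763 CPM in cultures. Of the MHC class II genes, Cd74, H2-Aa and H2-Eb1 lie higher in livers, H2-DMa and H2-DMb1 lower, and H2-Ab1 and Ciita overlap.

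Most markers of other liver cells were higher in the livers. Liver endothelium markers were higher in the livers in 10 of 12 cases, with a summed level of 211 to 281 CPM in the livers and 75.5 to 77.6 CPM in the cultures. The members lower in the livers were Oit3, at 20.3 ± 3.41 CPM in the livers and 43.8 ± 1.22 CPM in the cultures, and Vwf, von Willebrand factor, at 7.44 ± 1.01 CPM in the livers and 20.4 ± 1.30 CPM in the cultures. Stellate cell and fibroblast markers were higher in 10 of 12, with a summed level of 596 to 898 CPM in the livers and 20.4 to 23.3 CPM in the cultures. Acta2, smooth muscle actin, was the member lower in the livers, at 2.84 ± 1.39 CPM in the livers and 8.21 ± 0.611 CPM in the cultures. With TMM the edgeR adjusted p was 0.35 for Oit3 and 0.054 for Acta2. Against the second control cultures Oit3, Vwf and Acta2 turned, with log2 ratios of 1.28, 2.17 and 2.98. Lrat, which stores vitamin A in stellate cells, averaged 47.7 ± 9.2 CPM in the livers with no count in the cultures. Col3a1, a fibrillar collagen, stood at 14.6, 109, 31.1 and 30.1 CPM in the livers, against 0.342, 0.235 and 0.161 CPM in the cultures, highest in liver replicate 2. The log2 ratio of Col3a1 was 7.56, and 6.68 without that liver. All 5 tested erythroid genes were liver-dominated, with the 7 markers summing to 249 to 355 CPM in the livers and 0.215 to 0.821 CPM in the cultures.

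Markers of some other blood cells had higher sums in the first cultures than in the livers. Neutrophil markers summed to 3.01 to 12.8 CPM in the livers, against 98.8 to 103 CPM in the cultures. Most of this was S100a8, at 1.53 ± 1.72 CPM in the livers and 76.2 ± 1.7 CPM in the cultures. The log2 ratio of S100a8 was -5.64, and -6.83 without liver replicate 2. Mpo, the myeloperoxidase of granulocyte precursors, had no count in the livers and stood at 7.41, 7.04 and 7.58 CPM in the cultures, at least 226-fold lower in the livers. B and plasma cell markers summed to 2.69 to 5.62 CPM in the livers and 11.9 to 14.0 CPM in the cultures. T and NK cell markers summed to 5.37 to 10.9 CPM in the livers and 15.6 to 17.7 CPM in the cultures, where 5 of 11 were at 0. The culture sum was almost all Cd4, at 0.630 CPM in the livers and 16.2 CPM in the cultures, and the other 3 tested members were higher in the livers. In the second control cultures the neutrophil markers and the T and NK cell markers each summed to 0 to 0.425 CPM. The part that such cells play in the macrophage-dominated class was not tested. The hepatocyte markers summed to 115944 to 133282 CPM in the livers and at most 0.0587 CPM in the cultures, with 8 of 10 at 0 there.

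Paired genes with the same or a related role often differed between liver and macrophage. The pairs and their order were chosen with earlier results of these data known, so the counts of pairs are descriptions and no test. In all 21 pairs listed the gene named first, usually the hepatocyte form, had the higher log2 ratio, and in 13 pairs its ratio was above 0 and that of its partner below 0. Both differences passed the edgeR test in 12 of them, and under TMM 12 pairs ran in opposite directions. For fatty acid-binding proteins, Fabp1 stood at 1947, 1281, 1394 and 1761 CPM in the livers with 1 count in the cultures. Fabp5 stood at 6.82, 23.5, 10.8 and 9.22 CPM in the livers, against 1438, 1421 and 1398 CPM in the cultures. For pyruvate kinase, Pklr stood at 332, 274, 336 and 273 CPM in the livers with no count in the cultures, and Pkm at 15.2, 44.1, 20.9 and 21.5 CPM in the livers, against 2033, 2031 and 2054 CPM in the cultures. Neither gene of these pairs overlapped between the groups.

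For glucose uptake, the transporter Slc2a2 was found in the livers (599 ± 39 CPM, no count in the cultures), against Slc2a1, 16.7-fold lower in the livers. Scd1 and Scd2, desaturases of the same reaction, had log2 ratios of 6.78 and -3.60. Krt18, an epithelial keratin, and Vim, the filament of mesenchymal and blood cells, had log2 ratios of 11.72 and -5.99. Steps where both forms moved the same way included phosphofructokinase, where both Pfkl and Pfkp were lower in the livers, and methionine adenosyltransferase, where Mat1a and Mat2a were both higher.

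**Figure D5:**
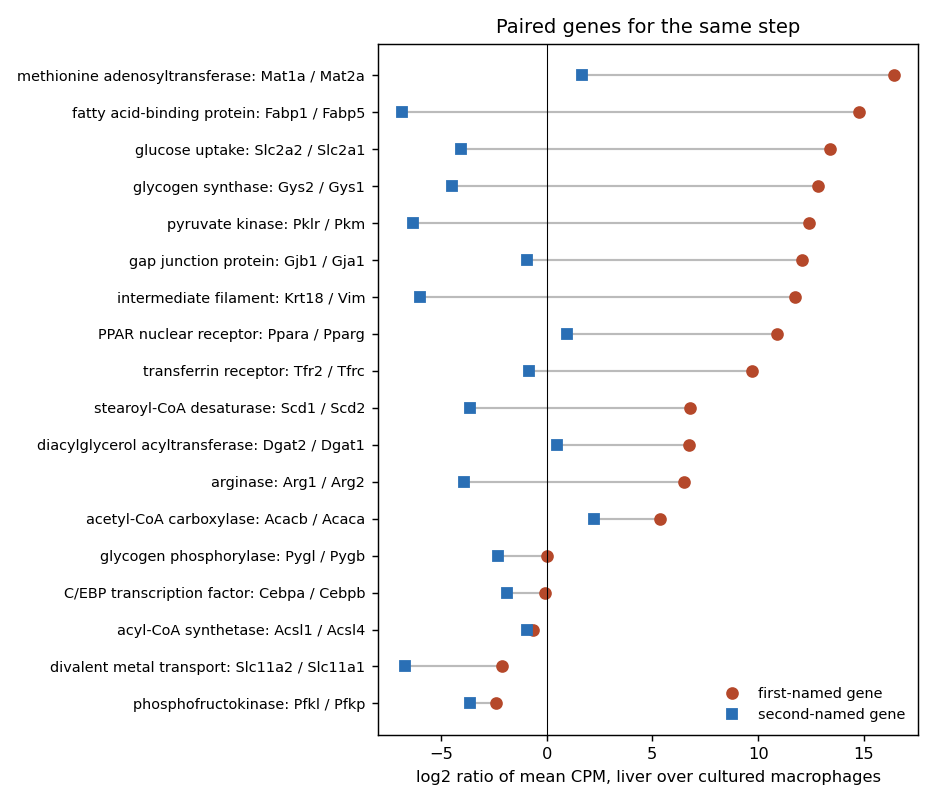
Log2 ratio of mean CPM, livers over cultures, for 18 of the 21 gene pairs, the first-named gene as a circle and the second as a square joined by a line. The circle lies to the right of the square in all 18 pairs shown, and the lines cross 0 in 10 of them. The pairs and their order were chosen with earlier results of these data known.

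Most genes of general protein synthesis, breakdown and folding were shared between the livers and the first cultures. Of 23 cytosolic ribosomal protein genes 19 were shared, of 21 proteasome genes 17, and of 16 genes of the unfolded protein response 12. Their median log2 ratios were -0.30, -0.32 and -0.38, against -0.85 over all tested genes. Against the second control cultures the medians were -2.27, -0.69 and -1.29. The direction of these lists followed the scaling. Of the ribosomal genes 5 were higher and 12 lower in the livers, against 21 higher and 1 lower under TMM, and of the proteasome genes 5 were higher and 12 lower, against 14 and 2. The shared genes with the highest mean level were Apoe, Eef1a1, Hspa8, Ctsl, Cat and Eef2. Apoe, the lipid carrier that hepatocytes and macrophages both secrete, stood at 13034, 13127, 11431 and 12111 CPM in the livers, against 7547, 7992 and 7871 CPM in the cultures. All livers lay above all cultures for Apoe, by 1.59-fold (edgeR adjusted p = 2.2e-05). Hspa5, the main chaperone of the endoplasmic reticulum, stood at 692 ± 151 CPM in the livers and 688 ± 7 CPM in the cultures, and at 3897 CPM in the second control cultures. Herpud1, a factor of protein disposal there, was the liver-dominated member of its list at 109, 220, 173 and 226 CPM in the livers, against 16.7, 15.0 and 15.3 CPM in the cultures.

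Growth and stress genes were divided. Of 22 cell cycle genes 20 were lower in the livers, with a median log2 ratio of -2.03. Mki67, a marker of dividing cells, stood at 5.16, 16.5, 5.24 and 5.90 CPM in the livers, against 188, 196 and 192 CPM in the cultures. Its log2 ratio was -4.55, and -5.14 without liver replicate 2. Ccnd1, cyclin D1, ran the other way at 521, 490, 451 and 509 CPM in the livers, against 17.9, 18.9 and 18.6 CPM in the cultures, 26.7-fold higher in the livers. In the second control cultures Ccnd1 stood higher, at 234 CPM. Among 17 immediate early genes 7 were macrophage-dominated, including Fos, Junb and Atf3, while Jund, Egr1 and Myc were higher in the livers. Against the second control cultures the last 3 turned, with log2 ratios of -2.57 for Jund, -0.44 for Egr1 and -0.52 for Myc. The log2 ratio of Fos was -4.63, and -5.25 without liver replicate 2. Nfat, calcineurin and ASK1 pathway genes were mostly shared or between, with 2 of 20 macrophage-dominated, Nfatc2 and Nfat5.

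The genes that the series targets were not in a dominated class. Nfatc3, a transcription factor that calcineurin activates, stood at 26.9, 40.6, 38.7 and 35.5 CPM in the livers, against 82.4, 82.9 and 87.0 CPM in the cultures. All livers lay below all cultures for Nfatc3, with a log2 ratio of -1.25 (SE 0.14, edgeR adjusted p = 1.6e-05), which was -0.25 under TMM (edgeR adjusted p = 0.035). Map3k5, which encodes the stress kinase ASK1, stood at 28.8, 34.8, 27.0 and 29.6 CPM in the livers and 30.6, 30.5 and 30.7 CPM in the cultures. The groups overlapped for Map3k5, with a log2 ratio of -0.03 (SE 0.11, edgeR adjusted p = 0.82), which was 0.97 under TMM (adjusted p = 2.6e-06). Of the kinases downstream of ASK1, Map2k3, Map2k4, Mapk8 and Mapk9 were shared, and Mapk14, a p38 kinase, lay between at a log2 ratio of -1.16, which was -0.14 under TMM (edgeR adjusted p = 0.25) and 0.14 against the second control cultures.

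Some genes gave ratios far from those of related genes, and their ratios between livers and cultures are uncertain. Of 13 mitochondrially encoded genes, 12 were higher in the livers, but by very unequal amounts although they lie on common primary transcripts. Both mt-Co1 and mt-Co2 encode subunits of cytochrome oxidase. mt-Co1 stood at 42452, 35833, 40209 and 43502 CPM in the livers, against 14719, 14821 and 14523 CPM in the cultures, 2.76-fold higher. mt-Co2 stood at 18023, 15963, 17128 and 18549 CPM in the livers, against 73.7, 71.1 and 66.1 CPM in the cultures, 248-fold higher. mt-Nd6, encoded on the other strand, was 10.7-fold lower in the livers. The part that the counting of reads with several matches plays in this was not tested. The glycolytic Gapdh was 6.47-fold higher in the livers, at 1870 ± 90 CPM, against 289 ± 18 CPM in the cultures, while 17 of 20 genes of hypoxia and glycolysis were lower in the livers. Fdps, a step of cholesterol synthesis, and Atp5po, an ATP synthase subunit, had 0.723 and 1.02 CPM in the cultures, against 240 and 145 CPM in the livers, far from their list medians. With the 13 mitochondrial genes left out of the totals and the tests, an alternative chosen after seeing the data, liver-dominated genes numbered 2236 and macrophage-dominated genes 1747.

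Both groups carried Y-linked transcripts. Ddx3y, a helicase, averaged 62.9 CPM in the livers and 97.7 CPM in the cultures, and Uty, Kdm5d and Eif2s3y were also counted in all 7 libraries. The livers came from male mice per the labels.

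A second set of 3 control cultures, the controls for the NFATc3-MKI macrophages, carries the same genotype and culture labels but sits in its own table, with 7693464 to 8526767 counts per library. The sets differed widely. For this comparison a constant was added to each mean CPM, which draws genes of low level together. On that scale 56.7% of the 13090 genes lay within 2-fold between the sets and 1073 differed by at least 8-fold. Between the livers and the first set 34.8% lay within 2-fold on that scale, against 28.2% classed as shared without the constant. Set against the livers, the second cultures gave 2238 liver-dominated, 2528 macrophage-dominated and 3092 shared genes. Of the first liver-dominated genes 74.2% kept their class, of the 1689 first macrophage-dominated genes that were tested 64.9%, and of the shared genes 44.4%. Opposite classes were found for 26 liver-dominated and 81 macrophage-dominated genes.

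Lineage genes marked the difference between the sets. Adgre1 averaged 34.0 CPM in the second cultures and Lyz2 425 CPM, against 2731 and 28524 CPM in the first. Maf, Marco, Timd4 and Vsig4 had no count there. Apoe, shared with the livers in the first cultures, stood at 12.2 CPM in the second. Among other macrophage genes, Spi1 stood at 93.5 CPM and Irf5 at 128 CPM in the second cultures. Mki67 stood at 720 CPM in the second cultures, against 192 CPM in the first. Which of the sets is nearer to a standard culture was not tested.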

How the data were processed

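Poly-A mRNA from whole liver and from cultured macrophages was extracted with TRIzol and made into strand-marked libraries, per the labels' protocols. Reads were aligned with HISAT2 to mm10, per the submitters' processing notes, and no source used here names the counter, the annotation or the strand setting. For the livers, the authors deposited expected counts, and these were rounded. Of the single values of the 4 livers, 85.9% were whole numbers before rounding, and 66.8% of the tested genes were whole in all 4 livers. The deposited culture tables hold raw counts per Ensembl gene, per the file headers and values. Ensembl IDs were given symbols (21851 of 21959 matched), and 16525 liver symbols matched directly and 315 through a RefSeq synonym. Totals over the 16840 shared genes set the scale. edgeR 4.0.16 (R 4.3.3) tested 13090 genes with the robust quasi-likelihood test and Benjamini-Hochberg adjustment, and the procedure was tested on simulated data. Classes used ratios of mean CPM of 8 and 2 and an adjusted p of 0.05. Genes named are the targeted genes, the 10 with the largest ratio and at least 100 CPM on each side, the 6 most counted of each group, the 6 highest shared genes, the paired genes and leading or deviating members of each list, and a few others chosen after their values were seen. The members and lists were chosen with earlier results of these data known. Replicate numbers did not pair the samples. Alternatives were TMM, median-of-ratios, totals over all genes, DESeq2 1.42.0, limma 3.58.1 voom, other filters and limits, each library left out, a replicate block and the second control cultures. Results for a few genes are not reported here.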

Additional observations from a re-analysis of the deposited data

Results flagged for a closer look

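Each value here is from 1 liver that stood apart from the other 3 livers by more than Dixon's 95% critical value, which chance gives in about 1 of 20 groups. In all, 180 items were screened in this way, and no cause was tested. Liver replicate 2 was the high one for most. It held 12.8 CPM of the summed neutrophil markers and 4.09 CPM of S100a8. For inflammatory genes it held 2.00 CPM of Acod1, 3.76 CPM of Adam8, 4.41 CPM of Clec4d, 3.35 CPM of Clec4e, 17.5 CPM of Saa3, 0.651 CPM of Nos2, 0.929 CPM of Tnf and 1.81 CPM of Lox. For other macrophage-side genes it held 80.2 CPM of Gpnmb, 18.2 CPM of Slc7a11, 11.9 CPM of Spi1, 16.5 CPM of Mki67 and 44.9 CPM of H2-Ab1. The same liver was high for the liver-dominated genes Cfi (761 CPM) and Gsta1 (52.5 CPM), and low for F10 (261 CPM). Liver replicate 4 stood apart for mt-Nd6, at 44.1 CPM.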

How the results depend on the processing

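The number of called genes stayed within 1.5 times of 11798 under every alternative run. Leaving out each library in turn gave 11547 to 11840 called, 2054 to 2128 liver-dominated, 1866 to 2107 macrophage-dominated and 3518 to 3806 shared genes. Macrophage-dominated genes numbered 1159 with TMM, 1129 with median-of-ratios scaling and 1129 with DESeq2, and 3526 and 1139 with a ratio of at least 4 and 16. With genes whole in every liver, of which fewer were tested, there were 1302 liver-dominated and 2413 shared genes, and within 1.5-fold 2153 shared genes. The replicate block gave 11455 called genes and changed no class count, and the replicate numbers do not pair the samples. Log2 ratios near 0 changed sign with scaling. With TMM, list medians were 0.71 for cytosolic ribosomal proteins, 0.69 for proteasome, 0.62 for unfolded protein response, 0.085 for immediate early and 0.016 for NFAT, calcineurin and ASK1. With median-of-ratios and DESeq2 both, they were 0.75 for cytosolic ribosomal proteins, 0.73 for proteasome, 0.66 for unfolded protein response, 0.12 for immediate early and 0.057 for NFAT, calcineurin and ASK1. With TMM, gene ratios were 0.35 for Ccr2, 0.73 for Cd5l, 0.97 for Cebpa, 0.22 for Ciita, 0.54 for Ctsl, 0.36 for Ddx3y, 0.78 for Eef2, 0.28 for Eif2s3y, 0.85 for F7, 0.68 for Folr2, 0.70 for H2-Ab1, 0.22 for Map2k4, 0.97 for Map3k5, 0.35 for Mapk8, 0.58 for Mapk9, 0.48 for Pck2, 0.73 for Plac8 and 0.89 for Por. With median-of-ratios and DESeq2 both, gene ratios were 0.39 for Ccr2, 0.77 for Cd5l, 1.01 for Cebpa, 0.26 for Ciita, 0.58 for Ctsl, 0.40 for Ddx3y, 0.82 for Eef2, 0.32 for Eif2s3y, 0.89 for F7, 0.72 for Folr2, 0.74 for H2-Ab1, 0.26 for Map2k4, 1.01 for Map3k5, 0.39 for Mapk8, 0.62 for Mapk9, 0.52 for Pck2, 0.77 for Plac8 and 0.93 for Por. With mitochondrial genes left out, they were 0.14 for Cebpa, 0.026 for F7, 0.17 for Map3k5 and 0.063 for Por. Leaving out each library in turn, ratios ranged -0.17 to 0.014 for Cebpa, -0.083 to 0.13 for Hspa5, -0.10 to 0.022 for Map3k5 and -0.017 to 0.080 for Slc40a1. Against the second control cultures, list medians were -0.42 for cholesterol synthesis, 1.37 for phagocytic and scavenger receptors, 1.29 for chemokines and receptors, 1.38 for MHC class II, 3.87 for neutrophil and 2.02 for osteoclast. Gene ratios against them were 2.98 for Acta2, 8.21 for C1qa, 8.28 for C1qb, 8.05 for C1qc, 4.40 for Ccr2, 2.25 for Cd4, 9.90 for Cd5l, -3.88 for Cd74, 4.76 for Cebpa, 4.12 for Ciita, 1.58 for Ctsl, -1.21 for Eef1a1, -0.44 for Egr1, 8.51 for F7, 4.67 for Folr2, 2.41 for Gclm, 3.44 for H2-Ab1, 5.39 for H2-DMb1, -2.49 for Hspa5, -0.028 for Hspa8, -2.57 for Jund, 8.32 for Maf, -0.72 for Map2k3, 0.69 for Map2k4, 0.20 for Map3k5, 0.14 for Mapk14, 7.16 for Marco, -0.52 for Myc, 1.28 for Oit3, 6.21 for Plac8, 1.41 for Por, 1.01 for Prdx1, -1.12 for Ptgs1, 3.53 for S100a8, 0.44 for Saa3, 4.47 for Spic and 2.17 for Vwf. The cause was not tested. Leaving out culture replicates 1, 2 and 3 moved 2, 2 and 29 named ratios by over 1.5 times, all of genes with at most 4 counts in the cultures, where the floor then covers fewer counts. A count of 0 over the cultures allows a level of up to 0.0564 CPM, for counting error only.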
